A study of Homo sapiens with 25 samples.

Results

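SOX2 and c-Jun were mapped by chromatin immunoprecipitation and sequencing in the lung adenocarcinoma cell line NCI-H2087, and their peak lists held 9262 and 23360 regions, together 32622 of the 1257083 peaks in the 20 lists of the series. A SOX2 peak that overlapped a c-Jun peak by at least 1 bp was called common (5050 peaks), and the others were called SOX2-only (4212 peaks). The c-Jun peaks that overlapped no SOX2 peak were called c-Jun-only (18331 peaks), and 5029 c-Jun peaks formed the other side of the common class. The 3 classes were compared for the other proteins and marks of NCI-H2087, for the marks of the lines NCI-H358, NCI-H441 and HCC364, for their distance to genes and for the genes within 50 kb.

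The series holds 25 samples from NCI-H2087 and 3 further human lung adenocarcinoma lines (NCI-H358, NCI-H441 and HCC364), each grown from 1 tumour. All were untreated cultures, fixed with formaldehyde and sonicated, with no engineered allele or agent named in the labels. NCI-H2087 had 11 antibodies (SOX2, c-Jun, NKX2-1, FOXA1, FOXA2, EP300, RNAPolII, H3K27ac, H3K4me1, H3K4me3 and CTCF), and each of the other lines had NKX2-1, H3K27ac and H3K4me1. Each antibody and line was 1 library, so SOX2 and c-Jun sites were known in NCI-H2087 alone and the other lines show only what their own marks were at those places.

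SOX2 is a transcription factor of the SOX family, which binds a short A/T-rich DNA word through its HMG box and is known for keeping progenitor cells of the airway and foregut undifferentiated. c-Jun, the product of JUN, is a subunit of AP-1, a dimer of JUN and FOS proteins that binds the word TGANTCA and acts downstream of growth factor and stress kinases. FOXA1 and FOXA2 are pioneer factors that bind DNA on nucleosomes in endoderm-derived tissue, NKX2-1 is the lineage factor of lung epithelium, and EP300 is an acetyltransferase that places H3K27ac at active enhancers. H3K4me1 marks enhancers whether or not they are active, and H3K4me3 marks active promoters.

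The sequence under the peaks could be read where a summit fell in the 250 bases before an annotated start (RefSeq promoters of GRCh38.p14). This was the case for 46 promoters at common peaks, 49 at SOX2-only peaks and 413 at c-Jun-only peaks. Common peaks were placed by the summit of SOX2, not that of c-Jun. The AP-1 word TGANTCA, searched on both strands, was in 45.7% of the common promoters (95% exact interval 30.9% to 61.0%), 6.12% of the SOX2-only promoters (1.28% to 16.9%) and 63.4% of the c-Jun-only promoters (58.6% to 68.1%), against 6.55% of all 34789 promoters. The SOX words ACAAAG and ACAATG were in 69.6% of the common promoters (54.2% to 82.3%), 71.4% of the SOX2-only promoters (56.7% to 83.4%) and 20.8% of the c-Jun-only promoters (17.0% to 25.1%), against 21.2% of all promoters. The c-Jun-only promoters thus held the AP-1 word, and the SOX2-only promoters the SOX words, more often than promoters as a whole. The common promoters held both more often. The FOX word TGTTTAC was in 4.35% of the common, 12.2% of the SOX2-only and 4.60% of the c-Jun-only promoters and in 2.98% of all, with intervals at common and SOX2-only promoters wide enough to overlap. The promoters also differed in base composition, with a median GC content of 42.8%, 49.6% and 53.2% in the 3 classes and 58% in all promoters, and its part in the word counts was not tested. A summit may lie in several overlapping promoter windows, each of which was counted. The promoters are thus not all separate sites, and the intervals may be too narrow. Matches are descriptions of letters, not of bound sites.

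The promoters printed here show those words where the peaks were strongest: in each class, the 2 promoters with the highest peak fold among those with a match to the words of that class's factors. Each runs 5′ to 3′ on the strand of its gene, over the 250 bases before the start, with matches to the SOX words (common and SOX2-only) and to the AP-1 words (common and c-Jun-only) in capitals.
LOC107986414, common, chr5:38783045-38783294, plus strand: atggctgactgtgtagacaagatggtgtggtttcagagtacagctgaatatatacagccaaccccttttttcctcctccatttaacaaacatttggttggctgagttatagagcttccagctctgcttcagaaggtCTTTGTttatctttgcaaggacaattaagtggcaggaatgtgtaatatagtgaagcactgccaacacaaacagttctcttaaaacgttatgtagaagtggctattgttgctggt
LOC105372652, common, chr20:49772344-49772593, minus strand: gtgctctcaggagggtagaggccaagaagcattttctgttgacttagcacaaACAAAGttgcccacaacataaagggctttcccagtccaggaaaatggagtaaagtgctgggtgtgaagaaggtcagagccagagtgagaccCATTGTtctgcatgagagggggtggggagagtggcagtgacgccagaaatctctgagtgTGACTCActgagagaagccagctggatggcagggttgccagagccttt
MTF2, SOX2-only, chr1:93079033-93079282, plus strand: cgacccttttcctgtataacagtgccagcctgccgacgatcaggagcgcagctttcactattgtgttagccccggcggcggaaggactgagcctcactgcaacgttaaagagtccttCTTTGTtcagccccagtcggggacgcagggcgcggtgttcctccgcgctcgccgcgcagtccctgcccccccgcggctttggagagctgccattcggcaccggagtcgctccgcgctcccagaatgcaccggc
HMGB1, SOX2-only, chr13:30465937-30466186, minus strand: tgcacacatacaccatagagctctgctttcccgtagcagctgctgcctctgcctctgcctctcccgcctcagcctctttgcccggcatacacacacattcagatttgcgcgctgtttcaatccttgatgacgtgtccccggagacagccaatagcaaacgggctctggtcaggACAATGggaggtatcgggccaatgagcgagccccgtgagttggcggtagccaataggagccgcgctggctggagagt
PRECSIT, c-Jun-only, chr13:110870309-110870558, minus strand: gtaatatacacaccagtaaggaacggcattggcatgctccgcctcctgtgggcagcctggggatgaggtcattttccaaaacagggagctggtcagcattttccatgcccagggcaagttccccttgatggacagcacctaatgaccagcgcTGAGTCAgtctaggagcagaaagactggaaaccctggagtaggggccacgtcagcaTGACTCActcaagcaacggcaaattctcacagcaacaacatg
LOC124906088, c-Jun-only, chr2:168211200-168211449, plus strand: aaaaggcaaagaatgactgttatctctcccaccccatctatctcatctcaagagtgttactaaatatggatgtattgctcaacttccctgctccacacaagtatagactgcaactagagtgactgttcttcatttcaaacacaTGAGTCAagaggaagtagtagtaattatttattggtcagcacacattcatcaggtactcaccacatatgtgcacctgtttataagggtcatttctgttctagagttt
The common peak over LOC107986414 had a SOX2 fold of 18.9 and a c-Jun fold of 16.1 over the local background, and its promoter held 1 SOX word and no AP-1 word. The common peak over LOC105372652 had folds of 16.2 for SOX2 and 16.7 for c-Jun and 2 SOX words beside 1 AP-1 word. Peaks over the SOX2-only promoters of MTF2, a Polycomb-associated protein gene, and HMGB1, a chromatin protein gene, had SOX2 folds of 12.6 and 10.2 and 1 SOX word each. Peaks over the c-Jun-only promoters of PRECSIT and LOC124906088 had c-Jun folds of 47.4 and 31.8, with 2 AP-1 words and 1 AP-1 word. H3K27ac lay over both SOX2-only and both c-Jun-only peaks in all 4 lines and over the LOC105372652 peak in all 4 lines, but over the LOC107986414 peak in NCI-H2087 and HCC364 and not in NCI-H358 or NCI-H441.

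More than 1 SOX2 peak in 2 also carried c-Jun, whereas about 1 c-Jun peak in 5 carried SOX2. The overlap came to 54.5% of SOX2 peaks (53.5% to 55.5%) and 21.5% of c-Jun peaks (21.0% to 22.1%). For comparison, 6.55% of all NKX2-1 peaks of NCI-H2087 overlapped a common peak and 21.2% a c-Jun-only peak. Of its FOXA1 peaks, 7.22% and 17.7% did so. How much of the SOX2 and c-Jun overlap is shared by bound sites of this line in general was not tested. Within common regions the summits were close, a median of 58 bp apart, with 45.1% within 50 bp and 89.8% within 200 bp. The remaining sites were mostly apart from the other factor: the gap to the nearest c-Jun peak had a median of 23367.5 bp for SOX2-only peaks, 4.75% had one within 1 kb, and for c-Jun-only peaks the gap to SOX2 had a median of 65143 bp, with 2.24% within 1 kb. Intervals here and below cover counting error only, since there is no replicate library.

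The strongest quartile of each factor's peaks overlapped the other factor most often. In quartiles of SOX2 fold, 51.8%, 50.6%, 53.0% and 62.6% of SOX2 peaks carried c-Jun, from weakest to strongest. In quartiles of c-Jun fold, 16.7%, 14.3%, 20.4% and 34.7% of c-Jun peaks carried SOX2. The 2 lists differed in the local background solved from fold and p. Its lowest value was 2.73 fragments for SOX2 and 1.13 for c-Jun, and the median folds were 6.76 and 9.59. Read depth itself is not given. A site without a peak may have held signal under the caller's threshold, and the classes depend on both lists' lengths. With the c-Jun list shortened to its 9262 strongest peaks, 30.1% of SOX2 peaks and 29.9% of c-Jun peaks overlapped. SOX2 peaks that overlapped only a weaker c-Jun peak then counted as SOX2-only, here and wherever the shortened list is used.

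Examples from the 5 strongest peaks of each class are given here, and single sites need not be typical of a class. The strongest common peak, chr14:36268841-36269673, had a SOX2 fold of 59.6 and a c-Jun fold of 8.80, lay 28.9 kb from MBIP, and carried NKX2-1, FOXA1, FOXA2 and EP300 in NCI-H2087. It had H3K27ac in NCI-H2087 and NCI-H441 and not in NCI-H358 or HCC364. The common peak chr14:34137764-34138788, 187 kb from EGLN3, had folds of 37.5 for SOX2 and 7.84 for c-Jun. It carried EP300 in NCI-H2087 but H3K27ac in no line. The common peak chr4:123418406-123419091 had folds of 38.2 for SOX2 and 9.79 for c-Jun, lay 14.6 kb from SPRY1, a feedback inhibitor of receptor kinase signalling, and carried H3K27ac and NKX2-1 in all 4 lines. The SOX2-only peak chr11:15694922-15695656, with a fold of 30.8, lay 271 kb from SOX6 and had H3K27ac in NCI-H2087 and in no other line. Of the 5 strongest SOX2-only peaks, 3 had H3K27ac in no line and the other 2 in NCI-H2087 only, and all 5 had FOXA1 and FOXA2. EP300 lay over those nearest to SOX6, C12orf42 and DNAJC24. Among c-Jun-only peaks, chr16:89994593-89996415 near DBNDD1 had a fold of 104.6 and chrX:78103826-78104322, over an end of PGK1, a glycolytic enzyme gene, had a fold of 73.4. Both carried H3K27ac in all 4 lines, and the PGK1 peak had neither FOXA1 nor FOXA2.

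H3K27ac separated the SOX2-only sites from the other 2 classes in every line. In NCI-H2087 an H3K27ac peak lay over 75.8% of common peaks (74.6% to 77.0%), 35.6% of SOX2-only peaks (34.2% to 37.1%) and 69.2% of c-Jun-only peaks (68.6% to 69.9%), against 52.5% of the 75657 NKX2-1 peaks of that line. In NCI-H358 the shares were 58.5%, 23.6% and 56.4%, against 42.5% of NKX2-1 peaks. In NCI-H441 they were 64.2%, 23.2% and 61.7%, against 46.3%. In HCC364 they were 51.4%, 16.5% and 59.5%, against 43%. SOX2-only sites were the lowest class in all 4 lines and lay under the NKX2-1 level in each, while the other classes lay above it.

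**Figure D1:**
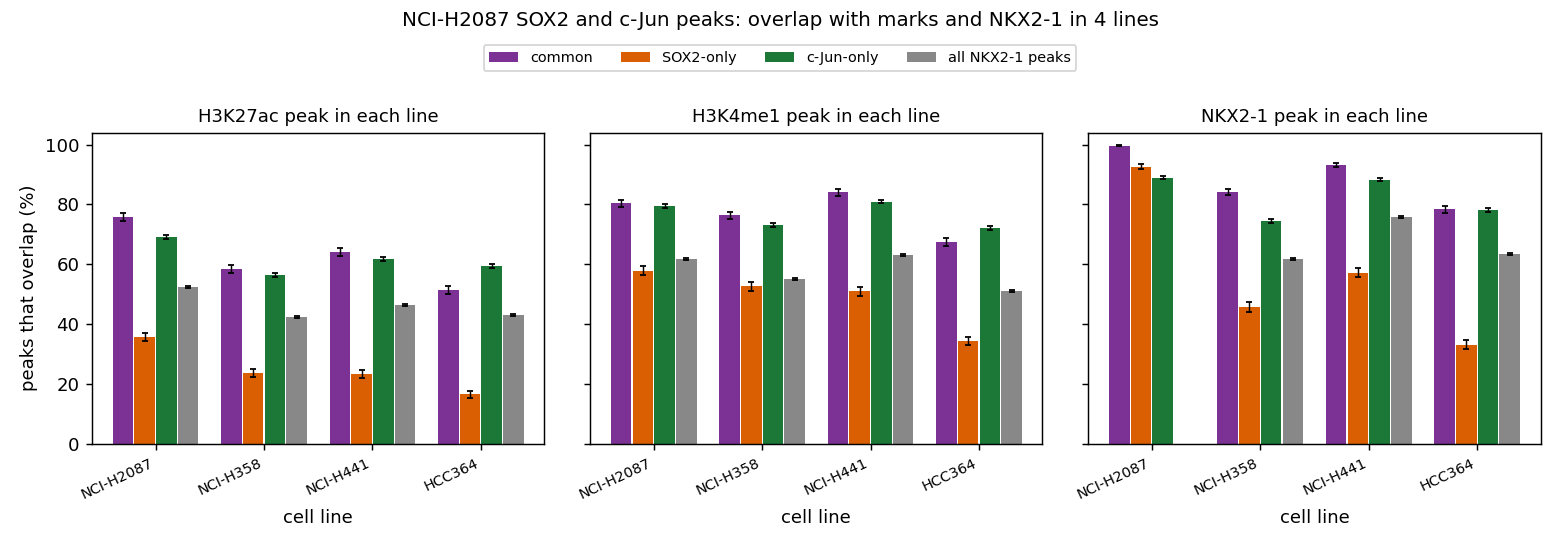
Percent of common (purple), SOX2-only (orange) and c-Jun-only (green) peaks of NCI-H2087 that overlap a H3K27ac, H3K4me1 or NKX2-1 peak of each of 4 cell lines on the x axis. Grey bars give all NKX2-1 peaks of NCI-H2087, error bars the 95% exact binomial interval, and the orange bars are lowest in each line except for NKX2-1 in NCI-H2087, where SOX2-only peaks stand at 92.7% and c-Jun-only peaks at 89.0%.

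Over the 4 lines the H3K27ac share averaged 62.5% ± 10.3 at common peaks, 24.7% ± 7.98 at SOX2-only peaks and 61.7% ± 5.48 at c-Jun-only peaks (SD, n = 4 lines). The SOX2-only minus c-Jun-only difference was -37.0 ± 4.76 points, lower at SOX2-only peaks in 4 of 4 lines. The exact two-sided sign-flip permutation test over the lines gave p = 0.125 (0.1875 adjusted by Benjamini-Hochberg for 3 antibodies), and 4 lines cannot give a smaller p than 0.125. The common share exceeded the SOX2-only share by 37.7 ± 3.27 points in 4 of 4 lines. The common and c-Jun-only shares differed by 0.78 ± 6.27 points, less than the spread between lines, with common higher in 3 lines and lower in HCC364. All lines were scored at the same NCI-H2087 sites, and the H3K27ac lists held between 47136 and 56384 peaks, so classes were compared within a line.

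Many SOX2-only sites lacked the mark in all lines. No H3K27ac in any of the 4 lines was seen at 16.6% of common, 55.8% of SOX2-only and 17.0% of c-Jun-only peaks, and H3K27ac in all 4 lines at 37.9%, 8.90% and 38.0%. Where NCI-H2087 itself had H3K27ac, the SOX2-only sites still had it less often elsewhere. Their H3K27ac peaks in NCI-H2087 were also weaker. The median fold of the overlapping peak was 14.5 at common, 9.06 at SOX2-only and 11.6 at c-Jun-only sites. The part of this strength in the shares below was not tested. Of the acetylated common peaks, 72.6% also had the mark in NCI-H358, 79.0% had it in NCI-H441 and 63.3% had it in HCC364. Of the acetylated SOX2-only peaks, the shares in those lines were 53.6%, 55.4% and 37.1%. Of the acetylated c-Jun-only peaks they were 72.7%, 80.5% and 73.5%.

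Acetylation was higher at stronger c-Jun peaks and not at stronger SOX2 peaks. With rising c-Jun fold, H3K27ac in NCI-H2087 lay over 58.9%, 68.6%, 75.3% and 88.5% of common regions taken as c-Jun peaks, and over 58.0%, 62.9%, 73.0% and 87.3% of c-Jun-only peaks. At like c-Jun strength the 2 classes thus stood within 6 points of each other in NCI-H2087. In HCC364 the common regions had less H3K27ac than c-Jun-only peaks in every quartile, with 33.4%, 40.5%, 48.7% and 68.4% against 49.8%, 55.1%, 61.9% and 74.9%. With rising SOX2 fold, the shares at common peaks were 82.3%, 75.4%, 73.7% and 72.6%, and at SOX2-only peaks 41.7%, 32.6%, 32.4% and 35.9%. The gap between common and SOX2-only peaks was present in every quartile.

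**Figure D2:**
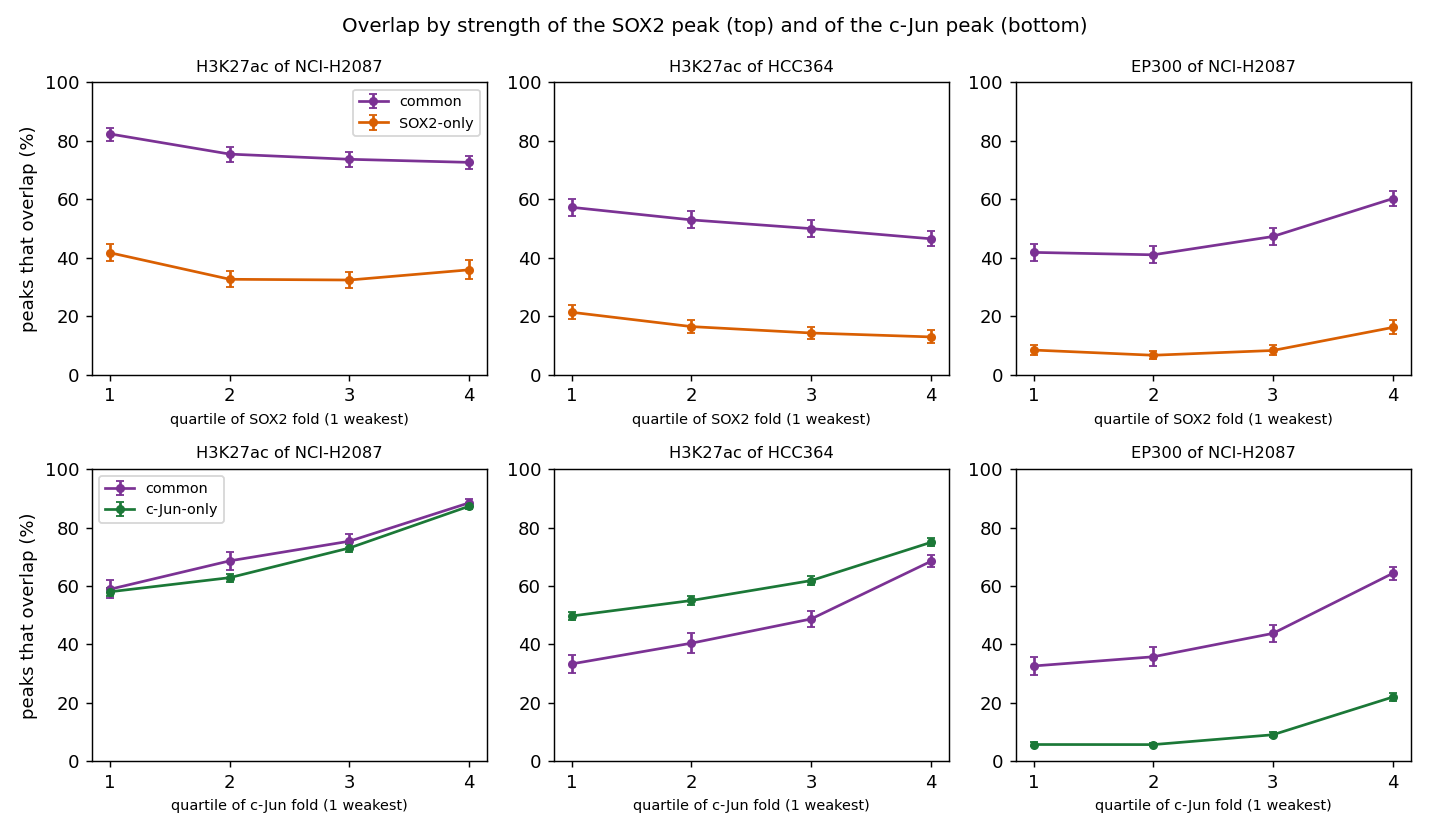
Percent of peaks that overlap H3K27ac of NCI-H2087 (left), H3K27ac of HCC364 (middle) or EP300 of NCI-H2087 (right), by quartile of SOX2 fold (top) or c-Jun fold (bottom) on the x axis, weakest first. Points are common (purple), SOX2-only (orange) or c-Jun-only (green) peaks with 95% exact binomial intervals, and in the strongest c-Jun quartile EP300 lies over 64.3% of common and 22.0% of c-Jun-only peaks.

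H3K4me1, which does not require activity, was less one-sided. It lay over 80.3% of common, 57.8% of SOX2-only and 79.4% of c-Jun-only peaks in NCI-H2087, against 61.7% of NKX2-1 peaks. In NCI-H358 the shares were 76.4%, 52.7% and 73.1%, against 55.2%. In NCI-H441 they were 84.0%, 50.9% and 81.0%, against 63%, and in HCC364 67.5%, 34.4% and 72.2%, against 51.1%. The SOX2-only minus c-Jun-only difference was -27.5 ± 8.16 points (SD, n = 4 lines), lower at SOX2-only peaks in 4 of 4, with an exact sign-flip permutation p = 0.125 and 0.1875 adjusted. Both marks together were present in NCI-H2087 at 62.4% of common, 28.9% of SOX2-only and 58.5% of c-Jun-only peaks. H3K4me1 alone was present at 17.9%, 28.9% and 21.0%, and neither mark at 6.22%, 35.4% and 9.80%.

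NKX2-1 of NCI-H2087 itself lay over nearly all sites of each class, 99.7% of common, 92.7% of SOX2-only and 89.0% of c-Jun-only peaks. In the other lines SOX2-only peaks had the lowest share, while common and c-Jun-only peaks differed by 0.15 points in HCC364 (interval -1.16 to 1.43). NKX2-1 lay over 84.2%, 45.7% and 74.6% of them in NCI-H358, against 61.8% of all NCI-H2087 NKX2-1 peaks. In NCI-H441 the shares were 93.3%, 57.1% and 88.3%, against 75.7%, and in HCC364 78.4%, 33.0% and 78.2%, against 63.3%. The difference between SOX2-only and c-Jun-only shares was positive in NCI-H2087 and negative in the other 3 lines, with a mean of -25.4 ± 20.7 points (SD, n = 4) and an exact sign-flip permutation p = 0.25, also 0.25 after adjustment. With each NKX2-1 list held to its 20000 strongest peaks the mean was -12.6 points. With the c-Jun list shortened to the length of the SOX2 list it was -25.0 points, and the difference was negative in every line. NKX2-1 in all 4 lines was found at 69.4% of common, 22.5% of SOX2-only and 59.8% of c-Jun-only peaks.

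Acetylation was more frequent where the same line had NKX2-1, in each class, and the classes differed also where NKX2-1 was present. In HCC364, H3K27ac lay over 63.2% of the common peaks with an HCC364 NKX2-1 peak and 8.42% of those without one. For SOX2-only peaks these shares were 40.4% and 4.65%, and for c-Jun-only peaks 71.7% and 15.6%. In NCI-H358 the shares with NKX2-1 were 68.1% of common, 45.4% of SOX2-only and 70.0% of c-Jun-only peaks, and in NCI-H441 68.2%, 38.0% and 68.0%. In NCI-H2087 they were 75.9%, 37.7% and 73.3%.

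FOXA1 and FOXA2 were almost constant companions of SOX2. FOXA1 lay over 97.9% of common peaks (97.5% to 98.3%), 88.7% of SOX2-only peaks (87.7% to 89.6%) and 65.7% of c-Jun-only peaks (65.0% to 66.3%), against 53.8% of NKX2-1 peaks. FOXA2 lay over 98.6%, 92.9% and 67.6%, against 58.6%. The SOX2-only share exceeded the c-Jun-only share by 23.0 points for FOXA1 (21.8 to 24.2) and 25.3 points for FOXA2 (24.3 to 26.3). With the c-Jun list shortened to the length of the SOX2 list the differences were 15.9 and 18.6 points, with some formerly common peaks among the SOX2-only peaks. These lists are long, and with the FOXA1 list held to its 20000 strongest peaks the FOXA1 difference was 18.1 points.

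The FOXA peaks under the common sites were also the highest. The median fold of the overlapping FOXA1 peak was 24.6 at common, 15.1 at SOX2-only and 12.2 at c-Jun-only sites, and that of FOXA2 was 31.4, 19.6 and 13.0. The overlapping NKX2-1 peak had a median fold of 23.0, 13.8 and 11.7. The gap in acetylation was also seen among sites that shared both FOXA proteins. Among sites with both FOXA1 and FOXA2, H3K27ac of NCI-H2087 lay over 76.0% of common, 37.0% of SOX2-only and 74.2% of c-Jun-only peaks. The 5297 c-Jun-only peaks with neither FOXA1 nor FOXA2, 28.9% of that class, carried H3K27ac at 58.8%, above the 52.5% of NKX2-1 peaks. The 274 SOX2-only peaks with neither carried it at 21.9%.

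EP300 was concentrated where both factors bound. An EP300 peak lay over 48.2% of common peaks (46.9% to 49.6%), 9.50% of SOX2-only peaks (8.63% to 10.4%) and 10.0% of c-Jun-only peaks (9.57% to 10.4%), against 9.24% of NKX2-1 peaks. SOX2-only and c-Jun-only sites differed by -0.50 points, with an interval of -1.48 to 0.52 that includes 0. With the shortened c-Jun list they differed by 1.49 points, but the SOX2-only class then also held formerly common peaks. Read from the EP300 side, 32.8% of the 7406 EP300 peaks overlapped a common peak, 5.41% a SOX2-only peak and 24.7% a c-Jun-only peak. By the same count over the much longer NKX2-1 list, those classes took 6.55%, 5.14% and 21.2% of peaks.

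EP300 was most frequent at the strongest peaks, and the gap between common and single sites was present in every quartile. In quartiles of c-Jun fold, EP300 lay over 32.6%, 35.8%, 43.8% and 64.3% of common regions and over 5.79%, 5.76%, 9.12% and 22.0% of c-Jun-only peaks. In quartiles of SOX2 fold it lay over 41.8%, 41.0%, 47.3% and 60.2% of common and 8.43%, 6.65%, 8.28% and 16.1% of SOX2-only peaks. The weakest quartile of common peaks thus stood above the strongest quartile of either single class. EP300 peaks under the 3 classes had median folds of 6.22, 5.83 and 5.52, closer to each other than those of FOXA2. At common sites with neither FOXA factor, 53 in all, EP300 lay over 13.2%, and at the 4926 with both over 49.2%.

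RNA polymerase II, scored by the RNAPolII library, split the classes like H3K27ac and not like EP300. It lay over 32.6% of common, 9.92% of SOX2-only and 27.02% of c-Jun-only peaks, against 24.8% of NKX2-1 peaks. H3K4me3 was uncommon, at 6.04%, 5.18% and 11.4%, against 20.4%. CTCF, the insulator protein, lay over 9.45%, 6.01% and 12.4%, against 20.6%. All 3 classes were below the NKX2-1 peaks in H3K4me3 and CTCF.

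**Figure D3:**
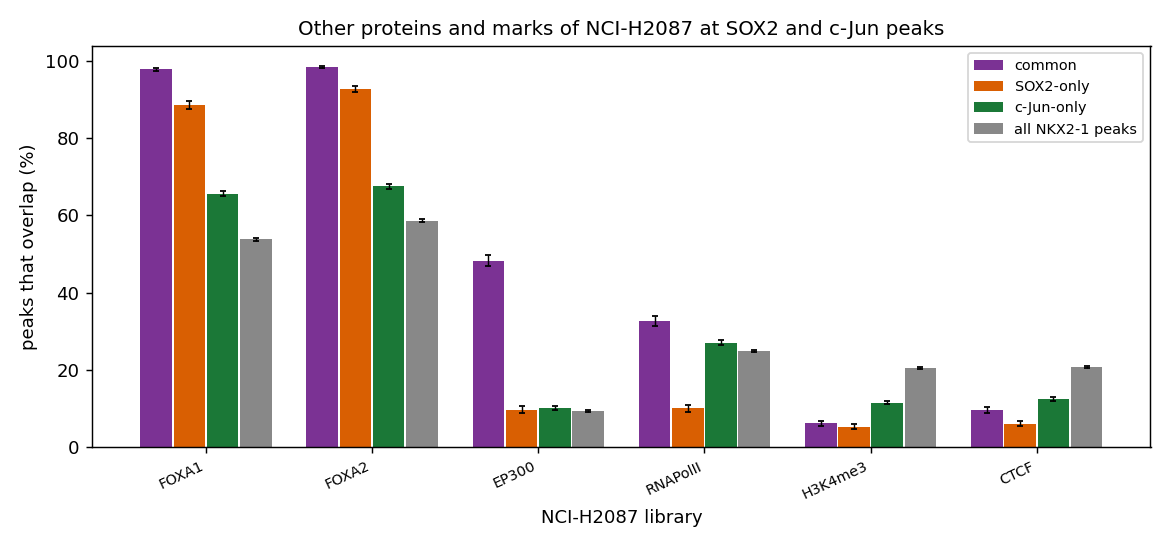
Percent of common (purple), SOX2-only (orange) and c-Jun-only (green) peaks, and of all NKX2-1 peaks (grey), that overlap a peak of each other NCI-H2087 library on the x axis. Error bars are 95% exact binomial intervals. EP300 stands at 48.2% in the common class and near 10% in the other classes.

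Few peaks of either factor lay close to a gene end, and SOX2 peaks lay farther from one than c-Jun-only peaks. Within 1 kb of an end of a protein-coding gene lay 2.44% of common peaks, 3.40% of SOX2-only peaks and 5.78% of c-Jun-only peaks, against 13.2% of NKX2-1 peaks. The SOX2-only minus c-Jun-only difference was -2.38 points (interval -3.01 to -1.70). Within 5 kb lay 10.5%, 11.8% and 17.5%, against 24.9%. The median distance was 42.8 kb for common, 41.7 kb for SOX2-only and 28.7 kb for c-Jun-only peaks, against 23.4 kb, and 45.5%, 45.1% and 36.0% lay beyond 50 kb, against 33.2% of NKX2-1 peaks, the other 66.8% of which lay within 50 kb. The gene table gives both ends of a gene without strand, so an end may be a start or a stop.

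**Figure D4:**
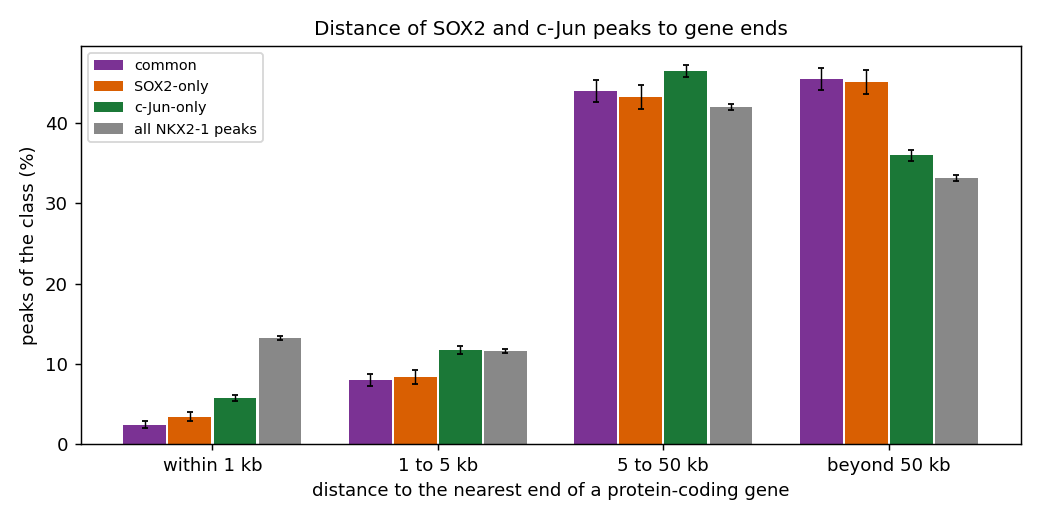
Percent of common (purple), SOX2-only (orange) and c-Jun-only (green) peaks, and of all NKX2-1 peaks (grey), in 4 bins of distance to the nearest end of a protein-coding gene. Error bars are 95% exact binomial intervals. Common and SOX2-only peaks show like shares in the bins beyond 1 kb, with 45.5% and 45.1% beyond 50 kb. Within 1 kb they stand at 2.44% and 3.40%.

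The near sites were more often acetylated than the far ones, and SOX2-only peaks were the lowest class in both. Within 1 kb of a gene end H3K27ac of NCI-H2087 lay over 82.9% of the 123 common, 63.6% of the 143 SOX2-only and 83.4% of the 1059 c-Jun-only peaks. Farther away the shares were 75.7%, 34.7% and 68.4%. H3K4me3 lay over 30.9%, 39.2% and 59.2% of near peaks, so most near peaks of common and SOX2-only sites were not at a promoter with that mark. FOXA1 lay over 93.5%, 80.4% and 53.3% of near peaks.

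Genes within 50 kb followed the number of peaks. Of 19970 protein-coding genes, 3828 (19.2%) had a common peak within 50 kb of either end, 3503 (17.5%) a SOX2-only peak and 11940 (59.8%) a c-Jun-only peak. A gene with 3 or more SOX2-only peaks and no c-Jun peak in that window was rare, 19 genes (0.0951%), whereas 1708 genes (8.55%) had 3 or more c-Jun-only peaks and no SOX2 peak. H3K27ac of NCI-H2087 lay within 1 kb of an end of 10 of the 19 and of 74.4% of the 1708, against 58.1% of all genes. In NCI-H358 it did so at 10 of the 19 and 69.5% of the 1708, against 56.8%, in NCI-H441 at 13 and 71.3%, against 56.2%, and in HCC364 at 11 and 72.7%, against 58.7%. H3K4me3 of NCI-H2087 lay there at 13 of the 19 and 76.5% of the 1708, against 65.9%.

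The largest numbers of common peaks belonged to ZBTB38, MTHFD2L, LRATD2 and AMOTL1, each the nearest gene of 6 such peaks. ZBTB38, a methyl-CpG binding zinc finger protein gene, had 8 common peaks within 50 kb, beside 1 SOX2-only and 5 c-Jun-only peaks. AMOTL1, of the angiomotin family of YAP binding proteins, had 6 common, 1 SOX2-only and 4 c-Jun-only peaks. ANXA2, a membrane-binding annexin gene, had 5 common, no SOX2-only and 6 c-Jun-only peaks and had H3K27ac at a gene end in all 4 lines. PRKCH, a protein kinase C gene, had 5 common and 9 c-Jun-only peaks with no SOX2-only peak, and no H3K27ac at a gene end in any line. SH3RF1 and CLIP4 were the nearest genes of 5 common peaks each.

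SOX2-only peaks were most numerous at ZNF608, nearest gene of 6, and at TLE3, NOTCH2, TLE1, SCAF8, IGF1 and HK2. TLE3 and TLE1 encode Groucho family corepressors. TLE3 had 4 SOX2-only peaks within 50 kb and no common or c-Jun-only peak. TLE1 had 3 SOX2-only, 1 common and 3 c-Jun-only peaks. NOTCH2, a Notch receptor gene, had 4 SOX2-only, 1 common and 4 c-Jun-only peaks, and IGF1, a growth factor gene, had 3 SOX2-only and 2 common peaks and no H3K27ac at a gene end in any line. CWH43 was the nearest gene of 7 SOX2-only peaks, but their folds were 1.43 to 2.15 over a local background of 119 to 238 fragments, against a lowest background of 2.73 in that list, and 5 of them were among the 17 SOX2-only peaks with a fold under 2. They are given here as listed, and the sites of high local background are left out in an alternative described with the limits.

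Of the genes with SOX2-only peaks and no c-Jun peak, SCAF8, DNAJC24 and GABRB2 had 3 such peaks within 50 kb, and the neighbouring genes MPEG1 and DTX4 had 4. DTX4 encodes a Deltex ubiquitin ligase and MPEG1 a macrophage perforin-like protein, and H3K27ac lay at an end of MPEG1 in NCI-H441 and of no other line. TLE3, SCAF8 and DNAJC24 had H3K27ac at a gene end in all 4 lines, and GABRB2, a neural receptor subunit gene, in none.

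c-Jun-only peaks were most numerous at SMAD3, the signal transducer of TGF-beta receptors, which was the nearest gene of 12 and had 1 SOX2-only and no common peak. ANKRD33B and CD58, an adhesion ligand gene, were the nearest genes of 10 each. DUSP1, a phosphatase gene that restrains MAP kinases, had 9 c-Jun-only and 2 common peaks within 50 kb. MLPH and PLB1 had 11 c-Jun-only peaks each within 50 kb, beside 1 and 2 common peaks. Genes with c-Jun-only and no SOX2 peaks included ATXN1 with 14 within 50 kb, ANKRD33B with 12, and HPCAL1, MICAL2, GNA13 and ERGIC1 with 9 each. All 6 had H3K27ac at a gene end in all 4 lines. In single lines 56.2% to 58.7% of all genes had that mark. The share of all genes with it in all 4 lines together was not counted. Neighbouring genes share peaks within 50 kb, so counts at adjacent genes are not separate.

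The factors' own genes lay on both sides. SOX2 had 1 common and 2 SOX2-only peaks within 50 kb and no c-Jun-only peak, and of the 10 SOX family genes 5 had a common (50%), 3 a SOX2-only (30%) and 5 a c-Jun-only peak (50%), against 19.2%, 17.5% and 59.8% of all genes. SOX9, a progenitor factor of the distal lung, had 1 common peak and no other, and SOX21 1 SOX2-only peak. JUN had 1 common and 3 c-Jun-only peaks and no SOX2-only peak. Of the 9 AP-1 and ATF3 genes, 3 had a common (33.3%), 3 a SOX2-only (33.3%) and 7 a c-Jun-only peak (77.8%), among them ATF3 with 2 common and 5 c-Jun-only peaks and FOS and JUNB with 1 SOX2-only peak each and no other. NKX2-1 had 1 common, 1 SOX2-only and 4 c-Jun-only peaks, FOXA1 had 1, 1 and 3, and FOXA2 had 4 c-Jun-only peaks alone.

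Signalling and adhesion genes had a c-Jun-only peak most often, as did genes in general, of which 19.2% had a common, 17.5% a SOX2-only and 59.8% a c-Jun-only peak. Of 16 extracellular matrix and integrin genes, 7 had a common (43.8%), 6 a SOX2-only (37.5%) and 15 a c-Jun-only peak (93.8%). Of 13 YAP and TEAD pathway genes the counts were 4 (30.8%), 5 (38.5%) and 12 (92.3%). YAP1, the transcriptional effector of the Hippo pathway, had 1 SOX2-only and 6 c-Jun-only peaks. Of 15 genes of MAPK output and feedback, 7 had a common (46.7%), 7 a SOX2-only (46.7%) and 11 a c-Jun-only peak (73.3%). SPRY1 had 2 common peaks and no other, and EPHA2, a receptor kinase gene, had 1 SOX2-only and 8 c-Jun-only peaks. EGFR had 6 c-Jun-only peaks and none of the other classes.

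The cell type lists are read against the same shares of all genes (19.2%, 17.5% and 59.8%). Among them, 14 simple epithelial keratin and junction genes stood highest for common peaks, with 9 having a common, 5 a SOX2-only and 13 a c-Jun-only peak. KRT8 and KRT18, adjacent keratin genes that share peaks, had 3 and 2 common peaks and 8 and 7 c-Jun-only peaks. Of 15 alveolar type 2 genes, which serve surfactant production, 6, 4 and 13 had a common, SOX2-only and c-Jun-only peak. SFTPA1, SFTPA2 and SFTPD, surfactant protein genes on chromosome 10, had 2 common peaks each. Of 10 alveolar type 1 genes 3, 4 and 9 had one, of 12 airway secretory and mucin genes 3, 1 and 8, and of 11 basal and squamous genes 2, 2 and 10. The airway c-Jun-only share (66.7%) and the basal common and SOX2-only shares (18.2% each) were near those of all genes. Of 10 ciliated cell genes 4, 3 and 6 had one, the last share (60%) near that of all genes, of 12 neuroendocrine and neural genes 0, 1 and 5, of 15 lung epithelial transcription factor genes 5, 4 and 10, and of 11 mesenchymal transition genes 3, 3 and 9.

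The comparator lists show how far such counts reach, read against the same shares of all genes (19.2%, 17.5% and 59.8%). Of 10 housekeeping genes 2 had a common, none a SOX2-only and 8 a c-Jun-only peak, and of 10 chromatin and coactivator genes none, 3 and 8. Of 10 blood and endothelial genes, markers of cell types that a pure epithelial line lacks, 5 had a common, 6 a SOX2-only and 6 a c-Jun-only peak. The housekeeping common share (20%) and the blood and endothelial c-Jun-only share (60%) were near those of all genes. KDR, an endothelial receptor gene, had 4 common and 1 SOX2-only peaks. No list was tested against another. By H3K27ac at gene ends, 7 of 7 epithelial markers were acetylated in NCI-H2087, 6 in NCI-H358 (not SFTPB), and 7 each in NCI-H441 and HCC364. Of 8 markers of other cell types 2 were acetylated in each line. These were CD3E and COL1A1 in NCI-H2087, NCI-H358 and NCI-H441, and CD14 and COL1A1 in HCC364. Of all genes 56.2% to 58.7% were acetylated, depending on the line.

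**Figure D5:**
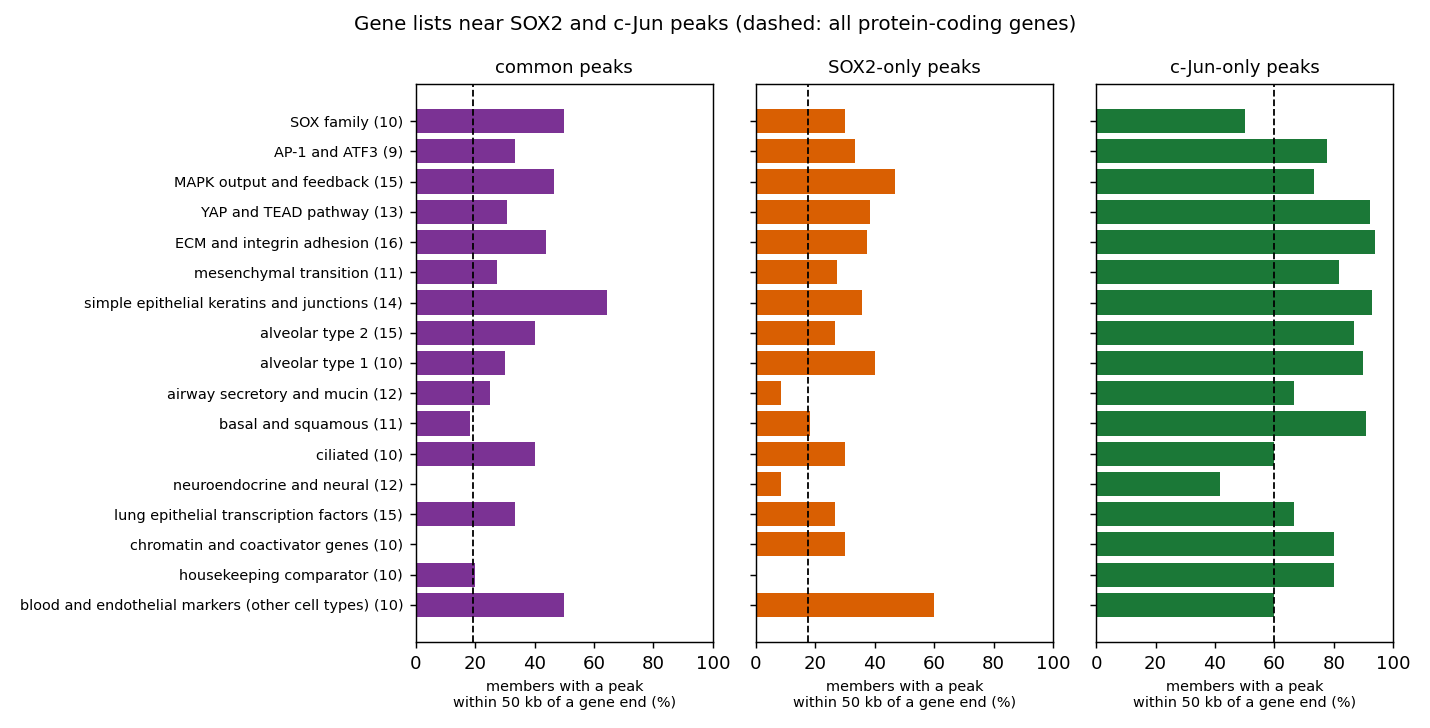
Percent of the members of 17 gene lists (number of members in brackets) with a common (purple), SOX2-only (orange) or c-Jun-only (green) peak within 50 kb of a gene end. Dashed lines give all protein-coding genes, at 19.2%, 17.5% and 59.8%. Keratin and junction genes reach 64.3% for common peaks, and blood and endothelial genes reach 60% for SOX2-only peaks.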

How the data were processed

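Chromatin immunoprecipitation libraries of 4 lung adenocarcinoma lines were analysed as peak lists, 1 library per line and antibody, with groups taken from the sample titles. The deposited files are narrowPeak lists on hg38 (GRCh38), called per library. The submitters' processing notes name MACS2 in versions 2.1.1 and 2.2.7.1, SAMtools 1.9, Bowtie2 2.2.9, Trimmomatic 0.36 and bedtools, without the role of each. In the deposited lists the authors give each peak's fold over local background (a linear ratio), its −log10 p and −log10 q, and an integer score. These are the authors' own numbers, used only to describe, rank and filter peaks within a list. Read depth is not given in these files. The local background in fragments was solved from fold and p where the solution met −log10 p to within 0.01 (99.9% of peaks in both lists).

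Peaks on chromosomes 1 to 22 and X were kept. Lists were compared by overlap of at least 1 bp, and gene distances and windows used 19970 protein-coding genes of RefSeq GRCh38.p14, with 1 kb and 50 kb limits. The gene table has no strand. Shares carry exact Clopper-Pearson 95% intervals, and differences of shares combine these by squares. Peaks of 1 library are not replicates, so no p was computed over peaks. The only tests are exact sign-flip permutations over 4 lines, adjusted over 3 antibodies. Genes are named as the 8 nearest to the most peaks of each class, the 6 with the most peaks of 1 single class and no peak of the other factor, and leading members of each list. Some of these are not reported here. The factor-specific promoters were searched for words on both strands. Classes and lists were chosen with earlier results of these data known. Alternatives were the strongest c-Jun peaks, a −log10 q of at least 5, overlap of 50% of the shorter peak, a 500 bp summit window, far peaks, the strongest 20000 peaks of each mark list, other distances and windows, and each line left out. Python 3.11.15, numpy 2.4.6, pandas 2.3.3, scipy 1.17.1 and matplotlib 3.10.9 were used. The 5 input libraries were not analysed here.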

Additional observations from a re-analysis of the deposited data

Results flagged for a closer look

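The difference between common and c-Jun-only peaks had another sign in HCC364 than in the other lines. For H3K27ac, the common minus c-Jun-only difference was -8.13 points in HCC364, against 6.60 points in NCI-H2087, 2.13 points in NCI-H358 and 2.50 points for NCI-H441. For H3K4me1 the difference was -4.70 points in HCC364, against 0.92 points in NCI-H2087, 3.35 points in NCI-H358 and 3.05 points for NCI-H441. With 1 library per line and mark, the difference between lines was not tested.

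The SOX2-only minus c-Jun-only difference in NKX2-1 was 3.74 points in NCI-H2087, the line in which SOX2 and c-Jun were mapped, but -28.9 in NCI-H358, -31.2 points for NCI-H441 and -45.2 for HCC364. This difference between lines was not tested either. With the c-Jun list shortened to the length of the SOX2 list, the mean was -25.0 points, with an exact sign-flip permutation p = 0.125. Over 4 lines that p arises only when all differences share a sign, so the NCI-H2087 difference was then negative too. Its positive sign thus depended on the length of the c-Jun list.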

How the results depend on the processing

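With the c-Jun list shortened to the length of the SOX2 list, the SOX2-only minus c-Jun-only difference was 15.9 points for FOXA1, 18.6 for FOXA2 and 1.49 for EP300. The SOX2-only class of that setting also held SOX2 peaks that overlapped only a weaker c-Jun peak. The overlap was then 30.1% of SOX2 and 29.9% of c-Jun peaks, and 2351 and 6355 genes had a common or c-Jun-only peak within 50 kb. With the strongest 20000 peaks of each mark list, the FOXA1 difference was 18.1 points, and the 4-line difference was -26.0 points for H3K27ac and -12.6 for NKX2-1, both still negative. A 5 kb limit gave a gene end difference of -5.75 points. A 10 kb window left 1125, 1007 and 5134 genes with a common, SOX2-only or c-Jun-only peak, and counting each peak at its nearest gene only left 2148, 1967 and 6741. Without peaks over 2 times the median local background, an alternative chosen after seeing the data, 53.4% of SOX2 and 20.9% of c-Jun peaks overlapped. Leaving out 1 line at a time, the 4-line difference ranged from -38.4 to -34.9 points for H3K27ac, -29.8 to -24.0 for H3K4me1 and -35.1 to -18.8 for NKX2-1. In all, 17 values moved: shares and their differences by more than the counting interval, counts of genes by over 1.5 times. None of them changed sign except the EP300 difference, whose interval includes 0. The other 63 did not move by these limits, or, for the tested 4-line differences, kept their sign and stayed past no threshold, although the 20000 strongest peaks moved the H3K27ac difference by more than its SD over lines. The cause of each move was not tested, other than fewer peaks or genes counted by construction. No paired analysis was possible because each line and antibody has 1 library, so replicate numbers pair no samples; the sign-flip test itself takes both classes within a line. A site without a peak may hold signal below the threshold of a library, and distal sequence could not be read.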
